A study of Mus musculus with 6 samples.

Results

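The Wnt ligands, their receptors and their modulators were followed in breast tumours of mice with and without Cyp27b1, which converts vitamin D to its active hormone. The genes were chosen by symbol. They were every numbered Wnt, Fzd, Dkk and Sfrp gene, except for 1 Wnt gene that is not reported here. Wnt1 is among those included. A named set of Lrp, Axin, T-cell factor, Lgr, R-spondin and related genes was added. The whole set came to 53 genes with 100 probes, of 19057 named genes and 45279 probes on the array. Tcf7 had no probe named in the annotation used here and was not analysed here. Breast tumours of FVB mice were profiled on Illumina bead arrays, with 1 array per sample, and each sample is called a tumour here. The 3 control tumours were Cyp27b1 flox/flox;Cre- and the 3 knockout tumours were Cyp27b1 flox/flox;Cre+, so all 6 carried floxed alleles. The study's title places the ablation in the mammary epithelium. The promoter that drives Cre, the way the tumours arose and the age of the mice are not stated in the labels. Only the knockout tumours carried Cre, so its own effect cannot be told apart from the loss of Cyp27b1. Triplicate mice are named in the design, without a link from any sample to its mouse. The p-values therefore measure the spread between these samples, which may be technical.

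Wnt proteins are secreted, lipid-modified ligands that bind Frizzled receptors. With the co-receptors Lrp5 or Lrp6 they stop the breakdown of β-catenin, which then enters the nucleus and activates genes together with T-cell factors. Other Wnt proteins, Wnt5a the best studied, signal mainly without β-catenin, through Frizzled and the Ror receptors, to cell polarity and movement. Secreted proteins of the Sfrp family and Wif1 bind Wnt ligands, Dickkopf proteins block the co-receptors, and R-spondins raise receptor levels through Lgr receptors. In the mammary gland, Wnt signals act in branching and in the upkeep of stem and progenitor cells, and Wnt1 was found as a site of viral insertion in mouse mammary tumours.

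The summed signal of an array lay between 10692100 and 14815000, and 33.4% to 36.1% of probes were above background. Arrays of the control group correlated with each other at 0.951 to 0.969 over the kept probes, those of the knockout group at 0.936 to 0.968, and arrays of different groups at 0.864 to 0.935. The only Cyp27b1 probe was above background on 0 arrays, with a log2 signal of 4.34 ± 0.05 (SD, n = 3) in control and 4.36 ± 0.07 (SD, n = 3) in knockout tumours. The difference of 0.02 had an exact two-sided permutation p of 0.8 (the smallest possible with 3 tumours a group is 0.1). With no signal, the labels could not be checked by this gene.

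Most of the Wnt genes did not pass the filter on signal above background, defined as a detection p below 0.05. Of the 53 genes, 22 were above background in no tumour, 11 were seen in 1 to 3 tumours but did not pass the filter, and 20 had a kept probe, one above background on at least 3 of the 6 arrays. A single tumour had 19 to 24 of the 53 genes above background: 22, 24 and 19 in the control tumours (in the order 1, 2, 3), and 24, 20 and 21 in the knockout tumours. The numbers overlapped between the groups. A probe not above background does not show that the mRNA is missing. Rhoa, a small GTPase, and Csnk1a1, a kinase of the β-catenin destruction complex, are widely expressed genes and were also above background on 0 arrays.

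**Figure D1:**
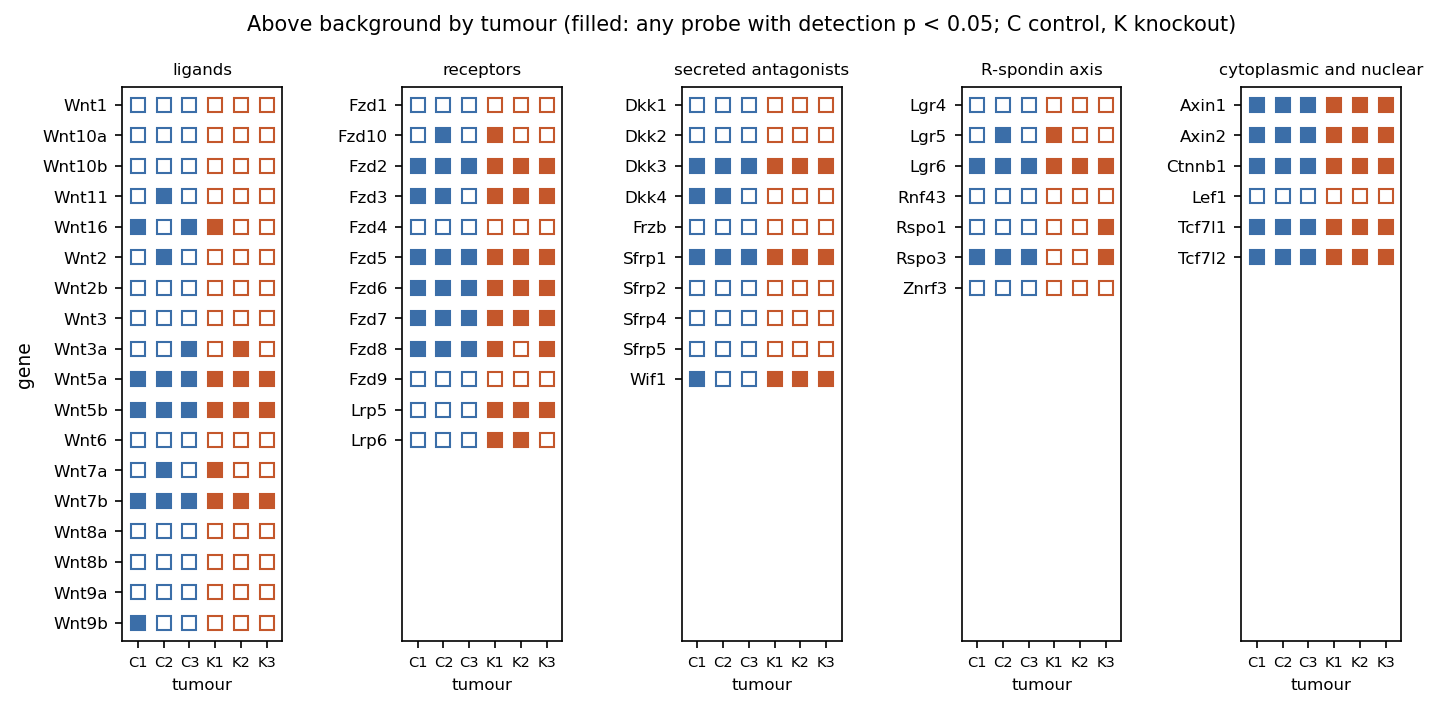
Each square is 1 gene in 1 tumour, filled where any probe of the gene had a detection p below 0.05, with genes in rows by role and tumours in columns (C, control; K, knockout). Lrp5 was filled in the 3 knockout tumours and in 0 control tumours, while Wnt5a, Wnt5b, Wnt7b and Dkk3 were filled in all 6.

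Of the 33 kept probes of the 20 genes, 6 differed between knockout and control tumours at an adjusted p below 0.05 in limma, which is 18.2%. Over all kept probes 9.2% were called. Of these 6 probes 2 were higher in the knockout tumours and 4 lower, where 4.14% of all kept probes were called higher and 5.06% lower. By gene, each taken at its brightest kept probe, 4 of 20 were called: Wnt5b and Lrp5 rose and Wnt5a and Dkk3 fell, against 10.1% of all measured genes called. The values of control and knockout tumours did not overlap in 15 of the 33 probes, 45.5%, and in 30.2% of all kept probes. The median log2 difference over the 20 genes was 0.45, and over all measured genes 0.05. With the authors' deposited values the median over the 20 genes was 0.21, and without background correction 0.29. The counts cover genes that passed a filter on signal, and a gene bright in 1 group alone, such as Lrp5, passed because of that group. The genes were chosen with earlier results of these data known, so the comparison of shares is not an independent one. All adjusted p-values are from limma with Benjamini-Hochberg adjustment over all kept probes, and levels are normalized log2 signals.

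**Figure D2:**
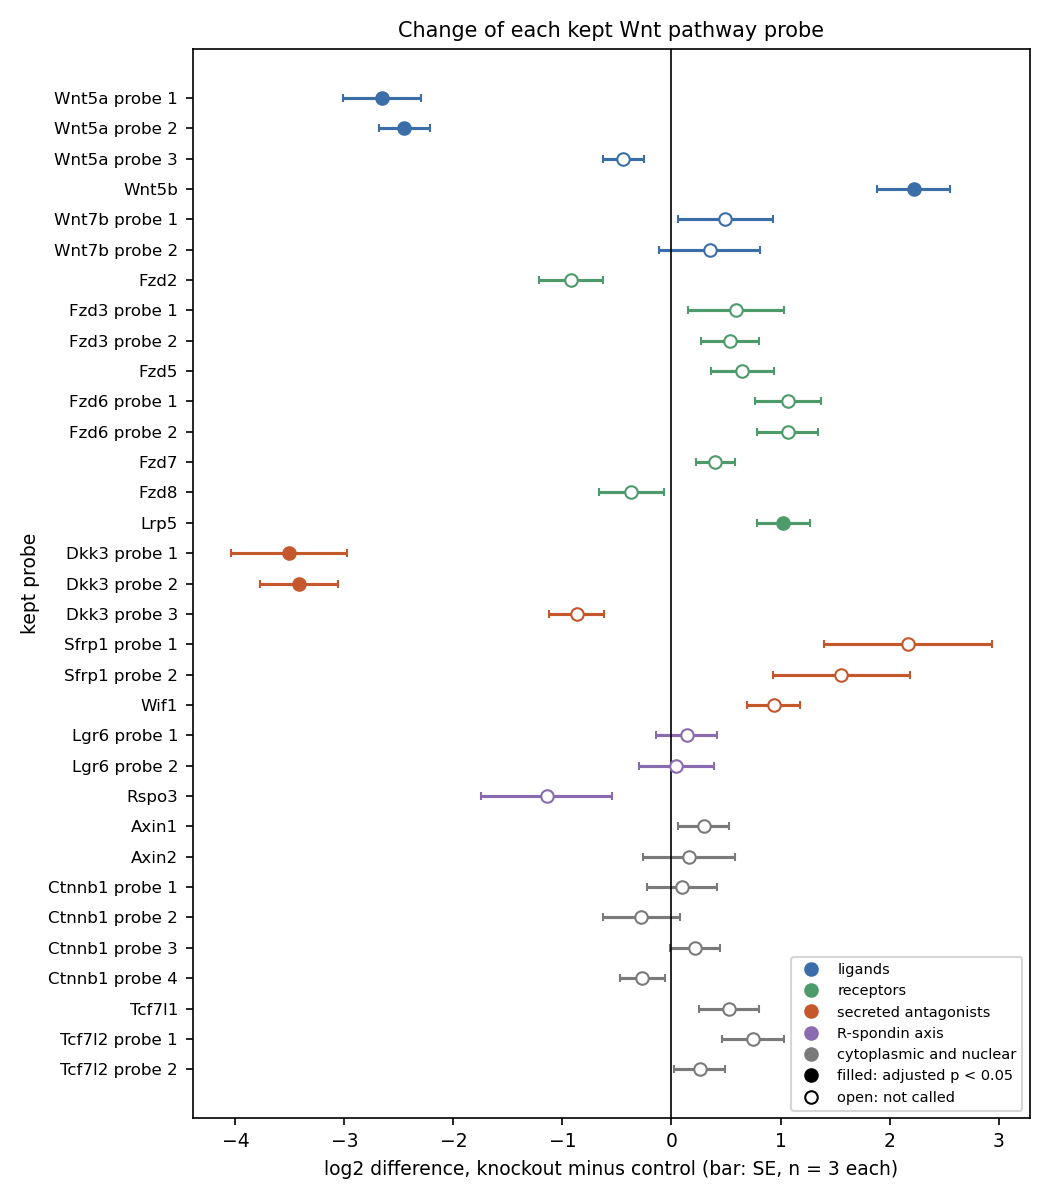
Each point is the log2 difference, knockout minus control, of 1 kept probe with its standard error (n = 3 tumours a group), coloured by role and filled where the adjusted p was below 0.05. The filled points are the 2 brighter probes each of Wnt5a and Dkk3, on the lower side, and Wnt5b and Lrp5, on the higher side.

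Among the ligands, Wnt5a fell and Wnt5b, its closest relative in the family, rose. Of 18 ligand genes with 30 probes, 3 had a kept probe. Wnt5a had log2 signals of 10.11, 10.37 and 9.60 in control tumours 1 to 3, and of 6.69, 7.42 and 7.99 in knockout tumours 1 to 3. The groups did not overlap, and knockout tumour 1 was the lowest. The mean went from 10.03 ± 0.39 to 7.37 ± 0.65 (SD, n = 3 each), a log2 difference of -2.66 ± 0.36 (SE; 95% interval -3.49 to -1.83; adjusted p = 0.0064 in limma), or 6.30-fold lower. A second Wnt5a probe gave 8.33, 8.19 and 7.87 in control and 5.44, 6.03 and 5.58 in knockout tumours, a difference of -2.45 ± 0.24 (SE; adjusted p = 0.0032 in limma). Another kept probe was dim, at 5.30 to 5.47 in control and 4.79 to 5.09 in knockout tumours, and its difference of -0.44 was not called (adjusted p = 0.19 in limma). In these bulk samples, fewer cells of a type and less RNA per cell cannot be told apart, here and in every result that follows.

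Wnt5b, which like Wnt5a acts mostly without β-catenin, had log2 signals of 7.08, 7.91 and 7.25 in control tumours 1 to 3. In knockout tumours 1 to 3 they were 9.0, 9.95 and 9.95. Every knockout tumour lay above every control tumour. The mean rose from 7.41 ± 0.44 to 9.63 ± 0.55 (SD, n = 3 each), a log2 difference of 2.22 ± 0.34 (SE; 95% interval 1.44 to 3.00; adjusted p = 0.00908 in limma), or 4.67-fold. It rests on 1 probe.

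Of the 4 called genes, Wnt5b alone had an entry in the RefSeq promoter table of GRCm38.p6. With a chromosome left out from the promoters of these Wnt genes, 35 of the 53 genes had 44 promoters. The table gives 3 starts for Wnt5b. The promoter at the start that holds the core T-cell factor motif, CTTTGA on either strand (TCAAAG on the opposite one), is printed because T-cell factors are the nuclear end of the β-catenin branch. It lies at chr6:119449337-119449636 on the minus strand and runs from 250 bases before the start to 50 after it, with the motif in capitals.
Wnt5b promoter: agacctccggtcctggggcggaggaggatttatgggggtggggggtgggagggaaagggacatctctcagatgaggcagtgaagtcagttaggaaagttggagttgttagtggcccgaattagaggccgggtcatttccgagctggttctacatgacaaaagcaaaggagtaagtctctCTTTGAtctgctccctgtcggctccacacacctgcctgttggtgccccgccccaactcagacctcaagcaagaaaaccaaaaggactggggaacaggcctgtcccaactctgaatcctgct
The motif begins 71 bases before the start, and the promoters at the other 2 starts do not hold it. It was found in 6 of the 44 promoters, 13.6%, and in 16% of all 32851 promoters of the same length in the table, from which no chromosome was left out. A match describes the letters and does not show binding.

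Wnt7b, a ligand of the β-catenin branch made by mammary and other epithelia, was bright in all tumours and set apart in 1. Its log2 signals were 10.44, 10.51 and 10.50 in control tumours 1 to 3, and 12.09, 10.55 and 10.30 in knockout tumours 1 to 3. The 3 control tumours lay within 0.1 of each other, and knockout tumour 1 stood above the other 5. A second probe had the same high tumour, with 8.18, 8.19 and 8.22 in control and 9.69, 8.29 and 7.65 in knockout tumours. The difference of 0.49 ± 0.44 (SE; 95% interval -0.52 to 1.5) was not called (adjusted p = 0.554 in limma) and was -0.06 without knockout tumour 1. The per-tumour values of Wnt7b, Fzd2, Sfrp1, Wif1 and Rspo3 are given because of their values, outside the rule for naming genes.

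The other 15 ligands did not pass the filter. Wnt1, Wnt2b, Wnt3, Wnt6, Wnt8a, Wnt8b, Wnt9a, Wnt10a and Wnt10b were above background in 0 tumours. Wnt2, Wnt9b and Wnt11 were above background in 1 tumour, Wnt3a and Wnt7a in 2 and Wnt16 in 3. Among them Wnt7a reached 6.91 in control tumour 2 and 6.45 in knockout tumour 1, and lay between 4.37 and 4.99 in the other 4. It therefore differed between tumours within each group.

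Among the 12 receptor genes, the co-receptor Lrp5 rose in the reported processing and Fzd6 was higher without passing the test. Groups did not overlap in 6 of the 9 kept receptor probes, 66.7%, against 30.2% of all kept probes, and Lrp5 is among them. Both kept Fzd6 probes and the dimmer kept Fzd3 probe are also among them, so the probes are not all of different genes. Lrp5 had log2 signals of 4.78, 4.8 and 4.59 in control tumours 1 to 3, where it was above background in none, and of 6.15, 5.73 and 5.36 in knockout tumours 1 to 3. The fitted difference was 1.02 ± 0.24 (SE; adjusted p = 0.039 in limma), and against the floor of detection Lrp5 was at least 1.72-fold higher. The floor per array lay between 4.90 and 5.0, and the bound sets the knockout mean against the control arrays' floor or their own value, whichever is higher. The call was made by 1 of 4 Lrp5 probes, the other 3 not passing the filter. It held in 6 of 16 alternatives, with adjusted p-values of 0.0286 to 0.121, and the difference was 0.22 in the authors' deposited values. Without any 1 tumour other than knockout 3 it was not called: adjusted p was 0.116, 0.0794 and 0.113 without control 1, 2 and 3, and 0.0686 and 0.116 without knockout 1 and 2. Its relative Lrp6 was above background in knockout tumours 1 and 2 and in 0 control tumours, and was not tested.

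Fzd6, a receptor best known from planar cell polarity, had log2 signals of 7.19, 7.72 and 6.56 in control tumours 1 to 3, and of 8.33, 7.98 and 8.36 in knockout tumours 1 to 3. The groups did not overlap, but control 2 and knockout 2 lay close. The mean was 7.16 ± 0.58 in control and 8.22 ± 0.21 in knockout tumours (SD, n = 3 each). The difference of 1.07 ± 0.31 (SE; 95% interval 0.36 to 1.78) was not called (adjusted p = 0.0696 in limma), nor was the 1.06 of a second probe (adjusted p = 0.055 in limma). Without control tumour 2 the brighter probe was called, at 1.35 (adjusted p = 0.0377 in limma).

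Fzd2, a receptor for Wnt5a among other ligands, had log2 signals of 8.09, 7.08 and 7.94 in control tumours 1 to 3, and of 6.71, 6.63 and 7.0 in knockout tumours 1 to 3. Control tumour 2 lay close to the knockout tumours. The difference of -0.92 ± 0.29 (SE; 95% interval -1.60 to -0.24) was not called (adjusted p = 0.0957 in limma), and was called without control 2, at -1.23 (adjusted p = 0.0286 in limma). Fzd7, a receptor known from mammary stem cells, had values of 8.74 to 8.85 in control and 9.06 to 9.26 in knockout tumours. These groups did not overlap either, but the difference of 0.40 ± 0.18 (SE) was not called (adjusted p = 0.22 in limma). Fzd5, Fzd3 and Fzd8 had differences of 0.65, 0.59 and -0.37, none of them called (adjusted p = 0.216, 0.474 and 0.512 in limma). The groups did not overlap at a dimmer kept Fzd3 probe, whose difference of 0.54 was not called either (adjusted p = 0.267 in limma). Fzd1, Fzd4 and Fzd9 were above background in 0 tumours and Fzd10 in 2.

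**Figure D3:**
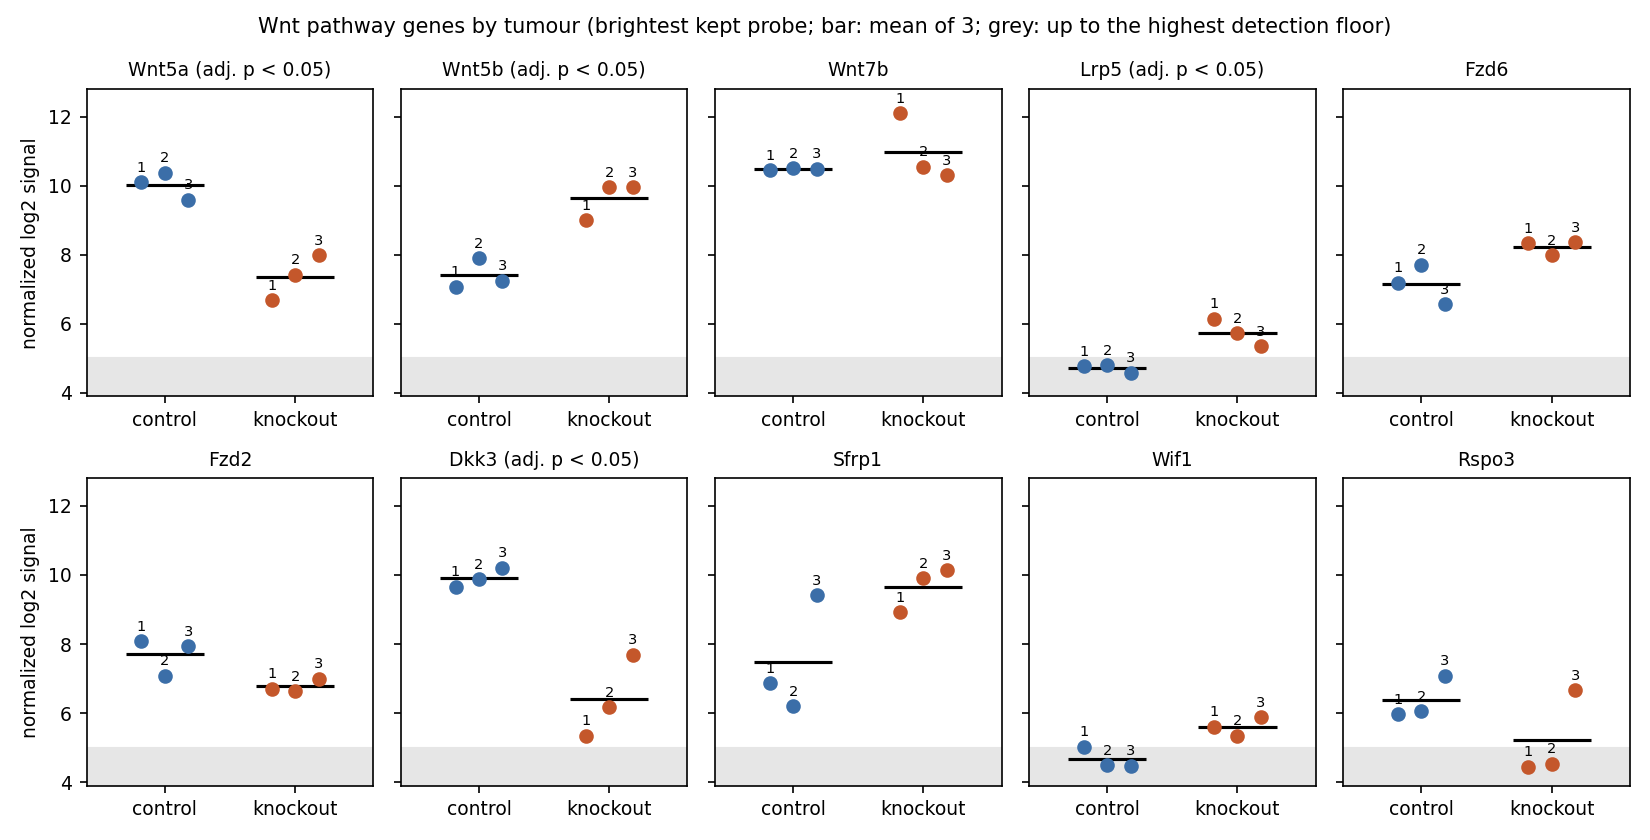
Each point is the normalized log2 signal of 1 tumour, numbered within its group, for 10 genes at their brightest kept probe, with bars at the mean of 3 tumours and grey up to the highest detection floor. Wnt5a and Dkk3 sit lower, and Wnt5b and Lrp5 higher, in all 3 knockout tumours than in any control tumour.

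Of the secreted antagonists, Dkk3 fell further than any other of the 20 measured genes, and Sfrp1 differed widely among control tumours. Dkk3 is a divergent Dickkopf protein that, unlike Dkk1, is not an established blocker of the Lrp co-receptors. Its log2 signals were 9.66, 9.87 and 10.21 in control tumours 1 to 3, and 5.34, 6.17 and 7.69 in knockout tumours 1 to 3. The groups lay far apart, and the knockout tumours spread over more than 2 log2 units. The mean went from 9.91 ± 0.28 to 6.40 ± 1.19 (SD, n = 3 each), a difference of -3.51 ± 0.53 (SE; 95% interval -4.74 to -2.28; adjusted p = 0.00903 in limma), or 11.4-fold lower. A second probe had 8.97, 8.94 and 9.52 in control and 5.13, 5.57 and 6.49 in knockout tumours, a difference of -3.42 ± 0.36 (SE; adjusted p = 0.0033 in limma). Another, dimmer probe was above background in 0 knockout tumours, and its difference of -0.87 was not called (adjusted p = 0.07 in limma).

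Sfrp1, a secreted Frizzled-related protein that binds Wnt ligands, had log2 signals of 6.86, 6.19 and 9.42 in control tumours 1 to 3. In knockout tumours 1 to 3 they were 8.91, 9.91 and 10.14. Control tumour 3 lay among the knockout tumours, and the groups overlapped. The difference of 2.17 ± 0.77 (SE; 95% interval 0.38 to 3.95) was not called (adjusted p = 0.129 in limma), nor was the 1.56 of a second probe (adjusted p = 0.17 in limma). Without control tumour 3 the difference was 3.13 and was called (adjusted p = 0.0156 in limma).

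Wif1, which binds Wnt ligands outside the cell, was dim. Its log2 signals were 5.03, 4.50 and 4.48 in control tumours 1 to 3, of which 1 was above background, and 5.61, 5.34 and 5.87 in knockout tumours 1 to 3, all above background. The difference of 0.94 ± 0.24 (SE; 95% interval 0.38 to 1.5) narrowly missed the threshold (adjusted p = 0.0515 in limma; 0.0423 to 0.142 over 16 alternatives, called in 3). Dkk1, Dkk2, Sfrp2, Sfrp4, Sfrp5 and Frzb were above background in 0 tumours. Dkk4 was above background in control tumours 1 and 2 and in 0 knockout tumours, and was not tested.

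On the R-spondin axis 2 of 7 genes were measured and neither was called. Rspo3, a secreted R-spondin, had log2 signals of 5.96, 6.06 and 7.08 in control tumours 1 to 3, and of 4.45, 4.54 and 6.67 in knockout tumours 1 to 3. Knockout tumours 1 and 2 were not above background, and knockout tumour 3 lay between control tumours 2 and 3. The difference of -1.15 ± 0.60 (SE; 95% interval -2.54 to 0.25) was not called (adjusted p = 0.291 in limma), while without knockout 3 it was -1.87 and was called (adjusted p = 0.028 in limma). Lgr6, an R-spondin receptor, had a difference of 0.14 ± 0.28 (SE; adjusted p = 0.818 in limma). The ubiquitin ligases Znrf3 and Rnf43, which remove Frizzled from the surface, and the receptor Lgr4 were above background in 0 tumours. The stem cell receptor Lgr5 was above background in 2 tumours and Rspo1 in 1.

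None of the 5 measured cytoplasmic and nuclear genes was called. Ctnnb1, which encodes β-catenin, had log2 signals of 9.82, 10.55 and 9.50 in control tumours 1 to 3, and of 10.48, 9.87 and 9.82 in knockout tumours 1 to 3. The groups overlapped, and the difference was 0.10 ± 0.32 (SE; 95% interval -0.64 to 0.83; adjusted p = 0.895 in limma). Its 4 kept probes gave differences of -0.28 to 0.22. Axin2, a target of the β-catenin branch that feeds back on it, had 7.0, 6.82 and 8.32 in control tumours 1 to 3 and 7.67, 7.91 and 7.06 in knockout tumours 1 to 3. Its difference was 0.16 ± 0.42 (SE; 95% interval -0.81 to 1.14; adjusted p = 0.861 in limma), with control tumour 3 the highest of the 6.

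Axin1, a scaffold of the destruction complex, differed by 0.30 ± 0.23 (SE; adjusted p = 0.496 in limma). Tcf7l2, a T-cell factor, had 6.30, 6.66 and 7.26 in control tumours 1 to 3 and 7.29, 7.78 and 7.40 in knockout tumours 1 to 3. These groups just failed to overlap, and the difference of 0.75 ± 0.28 (SE; 95% interval 0.09 to 1.40) was not called (adjusted p = 0.152 in limma). Tcf7l1, which mostly represses targets, differed by 0.53 ± 0.27 (SE; adjusted p = 0.286 in limma). Lef1 was above background in 0 tumours.

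Other genes of the pathway were taken from 4 lists of 119 symbols: secretion and transduction, other modulators, noncanonical and polarity genes, and β-catenin targets. Of the 108 with a probe 70 were measured and 19 were called, 10 higher and 9 lower in the knockout tumours, which is 27.1% against 10.1% of all measured genes. The lists were chosen with earlier results of these data known, so this comparison is not an independent one. The median log2 difference over the 70 genes was -0.08. Of these 19 calls 7 held without each single tumour and under the other 10 alternatives run on the lists: Celsr2, Dact2, Id2, Prickle1, Ror2, Sox9 and Tbx3. One of these alternatives, the mean of a gene's kept probes, was chosen for the lists after seeing the data. It kept 18 of the 19 calls, lost Bcl9 (adjusted p = 0.0747 in limma) and added Wls. Without the filter on dim probes the calls of Bcl9, Ccn4, Cthrc1, Nfatc4, Shisa2, Tle3, Twist1 and Vegfa were lost. The authors' deposited values and the fit without background correction lost Bcl9, Shisa2, Tle3 and Twist1, and cyclic loess lost Bcl9. For calls lost on leaving out a tumour, the highest adjusted p over the 6 fits that each leave out 1 is given.

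Of the noncanonical and polarity list, 2 of 19 measured genes rose and 4 fell, with a median of -0.19. Ror2, a receptor tyrosine kinase for Wnt5a, had log2 signals of 7.99, 7.35 and 7.77 in control tumours 1 to 3 and of 4.42, 4.99 and 5.53 in knockout tumours 1 to 3. Like its ligand it was lower in all 3 knockout tumours, with a log2 difference of -2.72 ± 0.32 (SE; adjusted p = 0.00414 in limma). Ror2 was above background in 2 knockout tumours, and its value in knockout tumour 1 lay below the floor of detection. The polarity protein Prickle1 fell by 1.59 (adjusted p = 0.00779 in limma). The transcription factor Nfatc4 fell by 3.15 (adjusted p = 0.0166 in limma), a call lost without control 1, control 3 or knockout 2 (highest adjusted p 0.074). The kinase Camk2d fell by 1.01 (adjusted p = 0.0272 in limma), a call held when knockout 3 was left out and lost without any other tumour (highest adjusted p 0.103), and its other kept probe, at -0.64, was not called. The polarity cadherin Celsr2 rose by 2.12 (adjusted p = 0.0103 in limma). The formin Daam1 rose by 0.90 (adjusted p = 0.0234 in limma), a call lost without any control tumour or knockout 2 (highest adjusted p 0.0933), and its 2 other kept probes, at 0.50 and 1.05, were not called. The Wnt co-receptors Ryk and Ptk7 differed by -0.17 and -0.23 and were not called. Mapk9 was not called at its brightest probe, at -0.15. A dimmer kept Mapk9 probe was called lower, at -1.08 (adjusted p = 0.0383 in limma), and another, at -0.17, was not.

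Of the β-catenin target list, 2 of 16 measured genes rose and 4 fell, with a median of -0.79. These counts are by brightest probe, where Cd44 was not called, at -0.79 (adjusted p = 0.193 in limma). A dimmer kept Cd44 probe was called lower, at -0.98 (adjusted p = 0.0226 in limma). The remaining kept Cd44 probes, at 0.39 to 0.80, were higher and not called. Id2, an inhibitor of basic helix-loop-helix factors, rose by 3.36 ± 0.32 (SE; adjusted p = 0.00323 in limma), and the transcription factor Sox9 by 1.90 ± 0.28 (SE; adjusted p = 0.00812 in limma). The Id2 probe was above background in 1 control tumour and 3 knockout tumours. It passed the filter through the knockout tumours, and its rise is measured against control values near the floor of detection. The transcription factor Tbx3 was called lower (adjusted p = 0.00518 in limma) at a probe above background in 0 knockout tumours, with log2 means of 6.49 in control and 4.61 in knockout tumours. Against the floor of detection it was at least 2.99-fold lower. Of its 2 other kept probes 1 fell by 1.19 and was called, and the other, at -0.17, was not. The secreted matrix-associated Ccn4 fell by 3.30 (adjusted p = 0.0166 in limma), a call lost without control 1, control 2 or knockout 2 (highest adjusted p 0.0738). Vegfa, the angiogenic factor, fell by 1.5 and Twist1, a mesenchymal transcription factor, by 1.72 (adjusted p = 0.0234 and 0.0377 in limma). The Vegfa call was lost without any control tumour or knockout 2 (highest adjusted p 0.0801), and that of Twist1 without control 1, control 3, knockout 1 or knockout 2 (highest adjusted p 0.121). The widely cited targets Myc and Ccnd1 had differences of -0.08 and -0.52 and were not called (adjusted p = 0.919 and 0.623 in limma). The feedback genes Nkd1, Sp5 and Notum were above background in 1, 1 and 2 tumours and were not tested.

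Of the secretion and transduction list, 4 of 27 measured genes rose and 0 fell, with a median of 0.09. Over all measured genes 10.1% were called in either direction. Ctnnbip1, an inhibitor of β-catenin's binding to T-cell factors, rose by 1.33 ± 0.21 (SE; adjusted p = 0.0103 in limma; 0.0522 without control 1). The co-repressor Tle3 rose by 1.38 (adjusted p = 0.0212 in limma), a call lost without control 2, control 3 or knockout 2 (highest adjusted p 0.0738). The called Tle3 probe was above background in 1 control tumour and 3 knockout tumours, so it too passed the filter through the knockout tumours. The other 2 kept Tle3 probes gave 0.71 and 0.02 and were not called. The co-activators Ep300 and Bcl9 rose by 0.75 and 1.17 (adjusted p = 0.0421 and 0.049 in limma). The Ep300 call was lost without any 1 tumour (highest adjusted p 0.12), and that of Bcl9 without any but knockout 1 (highest adjusted p 0.155). The other kept Bcl9 probe, at 0.74, was not called. Gsk3b, a kinase of the destruction complex, and Porcn, which attaches the lipid to Wnt proteins, had differences of -0.07 and -0.08. Wls, which carries Wnt proteins to the surface, differed by -0.86 at its brightest probe and was not called there (adjusted p = 0.076 in limma). All 5 kept Wls probes were lower in the knockout tumours, and 2 of them were called, at -1.13 and -1.01 (adjusted p = 0.0199 and 0.0184 in limma). The list's count of 0 that fell is therefore by brightest probe.

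Of the other modulators, 2 of 9 measured genes rose and 1 fell, with a median of -0.01. Dact2, a Dishevelled-binding protein, had log2 signals of 7.95, 7.71 and 7.77 in control tumours 1 to 3 and of 9.87, 9.71 and 9.32 in knockout tumours 1 to 3, and rose by 1.82 ± 0.21 (SE; adjusted p = 0.00415 in limma). Cthrc1, a secreted glycoprotein that in mice stabilizes the complex of Wnt ligands with Frizzled and Ror2, had 9.51, 9.96 and 9.14 in control tumours 1 to 3 and 4.55, 6.17 and 7.31 in knockout tumours 1 to 3. It fell by 3.52 (SE 0.62; adjusted p = 0.0144 in limma), a call lost without control 1 or knockout 2 (highest adjusted p 0.063). Cthrc1 was above background in 2 knockout tumours, and its value in knockout tumour 1 lay below the floor of detection. Shisa2, which holds Frizzled inside the cell, rose by 2.07 (adjusted p = 0.0334 in limma), a call that held when knockout 1 was left out and was lost without any other tumour (highest adjusted p 0.11). The Dickkopf receptor Kremen1 and the inhibitor Apcdd1 had differences of -1.33 and -1.56 and were not called (adjusted p = 0.0622 and 0.0809 in limma).

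**Figure D4:**
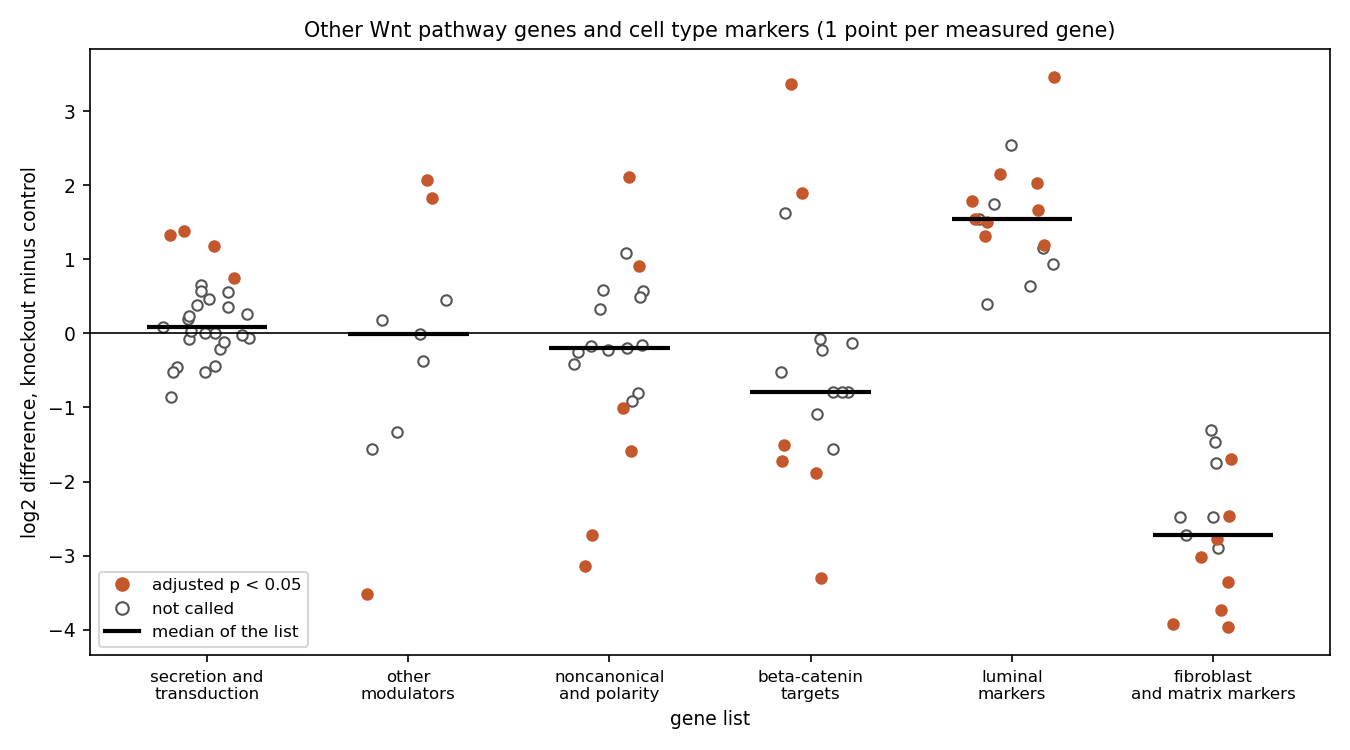
Each point is the log2 difference, knockout minus control, of 1 measured gene in 4 lists of other Wnt pathway genes and in the luminal and the fibroblast and matrix marker lists, filled where the adjusted p was below 0.05, with a bar at each list's median. The median was -0.79 in the β-catenin targets, 1.55 in the luminal markers and -2.72 in the fibroblast and matrix markers.

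The epithelial keratins Krt8 and Krt18 were above background in all 6 tumours. Markers of cell types also differed between the groups. Of all 9354 measured genes, 418 were called higher and 527 lower in the knockout tumours, together 10.1%. Of 18 fibroblast and matrix genes with a probe 15 were measured, 8 fell and 0 rose, and their summed signal was 27886 to 44944 in control and 2096 to 9967 in knockout tumours. Postn, a defining marker, was above background in 0 tumours. Of 19 luminal epithelial genes with a probe 16 were measured, 9 rose and 0 fell, and their summed signal was 7051 to 15722 in control and 17831 to 34360 in knockout tumours. Among the 9, Spint2 was above background in 0 control tumours and the brightest Elf5 probe in 1, so they passed the filter through the knockout tumours. The mean log2 signal of the measured matrix genes was 9.36, 8.87 and 10.45 in control tumours 1 to 3 and 5.81, 6.96 and 7.91 in knockout tumours 1 to 3. The knockout tumours had the same order, 1 below 2 below 3, for Ror2, Cthrc1, both called Dkk3 probes and the brightest Wnt5a probe, while the second Wnt5a probe was highest in tumour 2. In knockout tumour 1, Ror2 and Cthrc1 were not above background. Among control tumours, tumour 3 had the highest matrix mean, the highest signal of both called Dkk3 probes and the lowest of both called Wnt5a probes. Sfrp1, at both kept probes, and Fzd5 had higher means in the knockout tumours and the same order of knockout tumours. Both Sfrp1 probes were also highest in control tumour 3 among the control tumours. These orders of 3 tumours were not tested. Of 13 basal and myoepithelial genes 11 were measured, 3 rose and 3 fell. Acta2, Actg2 and Myh11 fell, with differences of -2.45, -3.90 and -3.17. Mylk was not called at its brightest probe, at -2.64 (adjusted p = 0.079 in limma). Its other kept probes were called lower, at -2.78 and -2.77 (adjusted p = 0.0292 and 0.0447 in limma). Krt14, Itgb4 and Itga6 rose, by 1.39, 1.56 and 0.96, Itga6 being above background in 0 control tumours. The list's summed signal was 39516 to 49847 in control and 19278 to 34585 in knockout tumours. Acta2 was its brightest gene in control tumours (mean log2 14.88) and Krt14 in knockout tumours (13.53), so the sum does not describe the list as a whole. The 2 measured endothelial genes had a median of -1.60, the 4 measured macrophage genes -0.44, the 2 adipocyte genes -0.25 and the 2 lymphocyte genes -0.11, and none of these was called. The macrophage genes did not move together: Cd14 was 2.6 higher on the log2 scale in the knockout tumours and Lyz2 differed by -2.08 (adjusted p = 0.0514 and 0.227 in limma). The list's summed signal was 843 to 4578 in control and 3256 to 10085 in knockout tumours. The part of cell composition in the differences of the Wnt genes was not tested.

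Wnt5a and Wnt5b were called in all 16 alternatives of processing and samples. The Wnt5a difference ranged from -2.97 to -1.85 (adjusted p = 0.00291 to 0.0384 in limma) and that of Wnt5b from 1.53 to 2.54 (adjusted p = 0.00352 to 0.0474 in limma). Dkk3 was called in 15, with differences of -4.15 to -2.11. Without the filter on dim probes its brightest probe had an adjusted p of 0.0524 in limma. The smallest differences of Wnt5b and Dkk3, 1.53 and -2.11, came from the authors' deposited values.

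**Figure D5:**
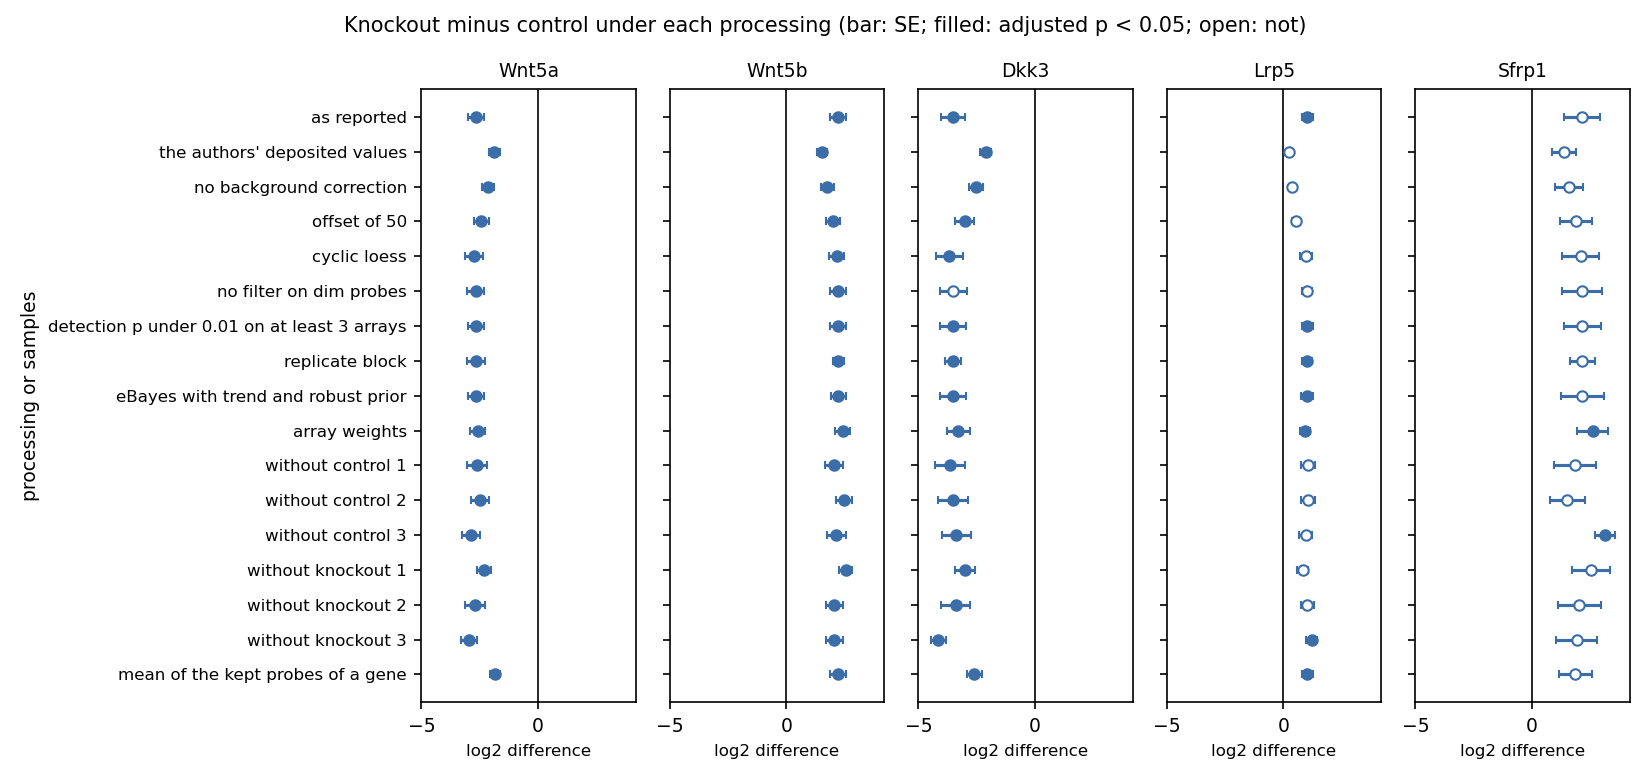
Each point is the log2 difference, knockout minus control, with its standard error under 1 choice of processing or samples, filled where the adjusted p was below 0.05. Wnt5a and Wnt5b are filled throughout, Dkk3 in 15 of 16 alternatives, Lrp5 in 6 and Sfrp1 in 2.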

How the data were processed

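RNA of 6 tumours was measured, 3 control and 3 knockout. The authors deposited the intensity of each probe, not normalized per the file headers, beside its detection p-value. A further table of the authors holds normalized values on a log2 scale. Lumi 2.6.0 stands in the submitters' processing notes, and how it normalized is not given in the sources. In each array the authors' log2 values ranked the probes as the intensity did (Spearman correlation across probes 1), with medians of 7.40 to 7.41. Their scaling is unknown, so they served as an alternative. In the table of intensity 4 broken lines, of 2 probes, were left out.

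The neqc function of limma 3.58.1 (R 4.3.3) corrected the background, normalized by quantiles and took log2, with an offset of 16 and the background inferred from the detection p-values, as the table holds no control probes. A probe was kept where at least 3 of 6 arrays had a detection p below 0.05 (15885 probes). Knockout minus control was tested with lmFit and eBayes, two-sided, adjusted by Benjamini and Hochberg's method across these probes, with calls at an adjusted p below 0.05. A gene stands at its kept probe of highest mean. The offset and floor compress the changes of dim probes, and the number of arrays limits the precision. Symbols came from the platform annotation: 34883 probes had 1, 18 several and 10378 none. Promoters are RefSeq's (GRCm38.p6). No protein or probe sequences were used here, and 1 Wnt gene is not reported here.

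Called genes and those with groups that did not overlap and a change of at least 1 log2 unit are given by tumour, and up to 6 called genes of each pathway list are named. Any other gene with values in the text was picked once they were known. The genes, lists and tests were chosen with earlier results of these data known. Alternatives were an offset of 50, the authors' values, cyclic loess, no background correction, no filter, a detection p below 0.01, the replicate number as a block, a trended robust prior, array weights, the mean of a gene's kept probes and leaving out each tumour. Same-numbered tumours deviated together with correlations of 0.23, 0.09 and 0.06 for numbers 1, 2 and 3. Differently numbered tumours had correlations of -0.20 to 0.08. These values do not settle whether the numbers pair the tumours, and no label pairs them. The main fit took the tumours as unpaired, with the block on replicate number as an alternative.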

Additional observations from a re-analysis of the deposited data

How the results depend on the processing

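With 3 tumours a group, small changes and those of dim probes are below what these arrays resolve; 22 of 53 genes were never above background. Called probes with higher values numbered 2, and 1 with an offset of 50, the authors' values, cyclic loess, no background correction or no filter, since Lrp5 was lost; leaving out a tumour gave 1 to 3. Called pathway list genes numbered 19, 11 without the filter, where more probes were tested, and 8 to 17 without a tumour (8 without control 1 and 8 without knockout 2). With a replicate block, 1381 probes were called in place of 1461, and 6 probes of these Wnt genes as before; Wnt5a had an adjusted p of 0.0149 there, and no call among the 20 Wnt genes changed. Of the 19 list genes, Bcl9, Daam1 and Ep300 lost their calls with the block. All calls on the array numbered 723 without the filter, and 476, 741 and 568 without control 1, control 3 and knockout 2. The uncalled differences of Lgr6, Ctnnb1, Axin2 and Wnt7b changed sign. Lgr6 gave -0.057 with array weights and -0.042 to 0.39 leaving out a tumour. Ctnnb1 gave -0.0067 with array weights, -0.058 as the mean of its probes and -0.13 to 0.39 leaving out a tumour. Axin2 ranged from -0.12 to 0.63. Wnt7b ranged from -0.062 to 0.84 and was below 0 only without knockout 1. The cause was not tested.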

Other observations

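Lgr5, Fzd10 and Wnt7a, which did not pass the filter, were each above background in control tumour 2 and knockout tumour 1 and in none of the other 4 tumours. Wnt7a stood clear of the floor, at 6.91 and 6.45 on the log2 scale. Lgr5 reached 5.07 and 5.13 in those tumours, close to the floor. Fzd10 reached 5.09 in control tumour 2 with one probe and 5.11 in knockout tumour 1 with another. Control tumour 2 and knockout tumour 1 also had the largest share of all probes above background in their groups, 35.3% and 36.1%. Each had 24 of the Wnt genes above background, the most of any tumour. The pattern was seen in the data and was not tested.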
